A study of Homo sapiens with 12 samples.

Results

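The genes described here are 10 genes of the TGF-beta, activin and BMP pathways: the ligand genes TGFB1, TGFB2, INHBA and INHBE, the TGF-beta-induced gene TGFBI, the inhibitory SMAD genes SMAD6 and SMAD7, and the ID genes ID1, ID2 and ID3. They were taken by name from a count table of 32077 genes, in which all 10 were found. PC3 and DU145 are human prostate cancer lines that grow without androgen, and their RNA was sequenced after 48 hours of pentamidine at 2.5 μmol/L or of vehicle (sterile distilled water). Pentamidine is an aromatic diamidine used against protozoan infections. Each of the 4 groups (PC3 vehicle, PC3 pentamidine, DU145 vehicle and DU145 pentamidine) had 3 samples, 12 in all. The labels give both lines as wild type and do not say whether the samples of a group were separate cultures, so the p-values below measure only the spread between these samples, which may be technical.

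TGF-beta and activin ligands bind pairs of serine/threonine kinase receptors that phosphorylate SMAD2 and SMAD3, whereas BMP ligands act through SMAD1, SMAD5 and SMAD9. The activated SMADs of both branches bind SMAD4 and move to the nucleus, where SMAD6, SMAD7 and, for BMP signals, the ID genes are well known direct targets, and SMAD6 and SMAD7 feed back to block the receptors. In epithelial cells TGF-beta restrains growth and in carcinomas it can also promote invasion, and ID proteins hold back differentiation by binding basic helix-loop-helix factors.

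Samples held 13514195 to 15131436 counts in PC3 vehicle, 14086950 to 14791260 in PC3 pentamidine, 13798818 to 14906017 in DU145 vehicle and 13891795 to 14576040 in DU145 pentamidine. Levels are given in CPM, from library sizes normalized by TMM. Mitochondria-encoded genes held 3.79% to 3.91% of the counts in PC3 vehicle and 2.66% to 2.76% in PC3 pentamidine, and 4.41% to 4.66% in DU145 vehicle and 1.97% to 2.07% in DU145 pentamidine. With these genes left out, no member gained or lost a call. Each pair of samples of a group differed by more than sampling noise (mean chi-square per gene 1.72 to 7.30). PC3 vehicle replicate 1 stood furthest from its group, at 5.98 and 7.30 from the other samples, which were 3.64 apart.

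The labels were checked against marker genes. KRT8 and KRT18, keratins of simple epithelia, were present in every sample (KRT8 at 238 to 38812 counts, a mean of 20.3 CPM in PC3 and 2712 CPM in DU145 vehicle), but the epithelial markers EPCAM, CDH1 and KRT19 were near 0 in both lines, at no more than 2, 10 and 3 counts in any sample. CTNNA1, the alpha-catenin gene that is known to be deleted in PC3 cells, was at a mean of 436 CPM in PC3 vehicle and 412 CPM in DU145 vehicle. The cells labelled PC3 and DU145 thus held next to no transcripts of 3 epithelial markers, and those labelled PC3 carried a transcript of a gene that the line is known to lack, so the line names below are those of the labels. The lines are described as having passed a short tandem repeat check, which RNA counts cannot repeat. KLK3, KLK2 and FOLH1, genes of androgen-responsive luminal cells, were at 0 to 3 counts. Markers of fibroblasts, endothelial cells and leukocytes summed to no more than 3.07, 1.15 and 0.584 CPM in any sample, with COL1A1, CDH5 and CD14 the highest of each list over the 12 samples.

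In PC3 cells, pentamidine was accompanied by higher TGFB2, INHBA, INHBE and ID3 and by lower TGFB1, TGFBI and ID2. In DU145 cells SMAD6, SMAD7 and ID1 were higher, and TGFB1, TGFBI, INHBA and ID3 were lower. INHBA and ID3 thus moved in opposite directions in the 2 lines, and TGFB1 and TGFBI were lower in both, but the calls for ID3 and for TGFB1 in DU145 cells depended on single samples. A gene passed the test when its p in the quasi-likelihood test of edgeR, adjusted by the Benjamini-Hochberg procedure over all genes tested, was below 0.05. In PC3 cells 7 of the 10 members passed, 4 higher and 3 lower, where 43.4% of all genes tested passed, 21.7% higher and 21.7% lower. In DU145 cells 7 of the 9 members tested passed, 3 higher and 4 lower, where 34.0% of all genes tested passed, 17.2% higher and 16.8% lower. Among the members tested, the samples of the groups did not overlap for the same 7 in PC3 cells and the same 7 in DU145 cells. Of all genes tested, 52.3% and 44.3% did not overlap. INHBE, not tested in DU145 cells, did not overlap there either. With an absolute log2 fold change above 1 as well, here called differentially expressed, TGFBI and INHBE were called in PC3 cells (4.75% of genes tested) and TGFBI in DU145 cells (2.03%). INHBE passed the low-count filter in PC3 cells only through the pentamidine samples, so its call is tied to the filter, and without it 6 of 9 members passed in PC3 cells, 3 higher and 3 lower, all 6 without overlap and 1 (TGFBI) differentially expressed. The RNA came from whole cultures, so a change in a subset of cells cannot be told apart from a change in RNA per cell.

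**Figure D1:**
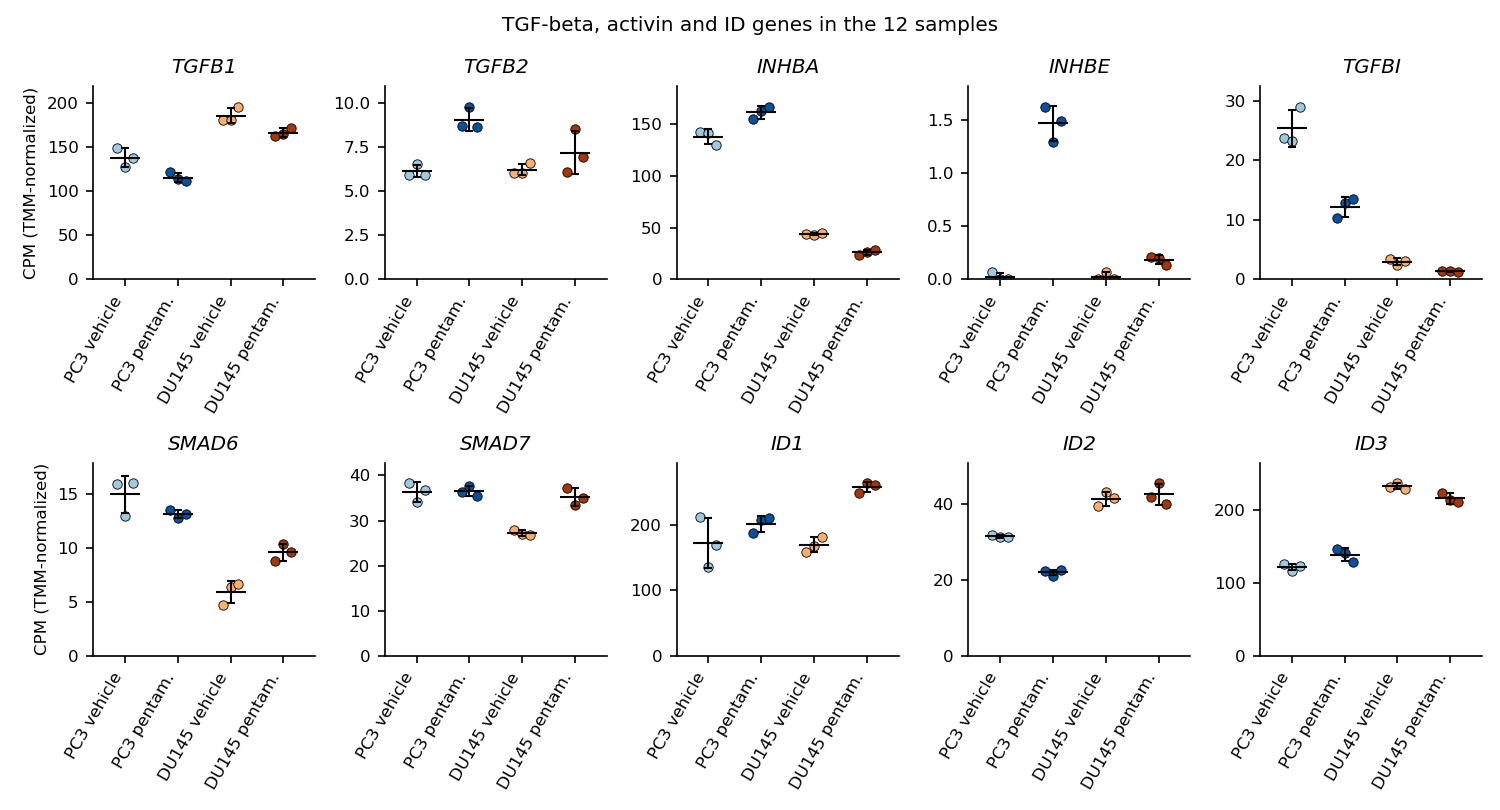
Level of each of the 10 genes in the 12 samples, in TMM-normalized CPM on a linear axis from 0. Points are samples, bars are the mean and SD of the 3 samples of a group; TGFBI is lower after pentamidine in both lines, and INHBA is higher in PC3 cells and lower in DU145 cells.

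TGFB1 encodes the TGF-beta 1 ligand (ENSG00000105329, chr19:41301587-41353911, minus strand, GRCh38). In PC3 cells it was at 149, 128 and 137 CPM in the vehicle samples and at 121, 113 and 111 CPM in the pentamidine samples. All 3 pentamidine samples lay below the vehicle samples, and the log2 fold change was -0.25 ± 0.06 (SE, edgeR adjusted p = 0.00268). In DU145 cells TGFB1 was at 180, 180 and 195 CPM with vehicle and at 162, 165 and 171 CPM with pentamidine. These groups did not overlap either, with a log2 fold change of -0.14 ± 0.04 (SE, edgeR adjusted p = 0.00234). The DU145 call was lost when libraries were scaled by size alone (-0.09, edgeR adjusted p = 0.0516) and without DU145 vehicle replicate 3 (-0.10, edgeR adjusted p = 0.0619). It was lost as well in limma on log2(CPM + 1) without and with its filter and on log2(CPM + 0.1) (-0.09 each, limma adjusted p = 0.173, 0.0566 and 0.113). These limma fits also used CPM scaled by library size alone, without TMM, so they are not separate from that scaling. The difference in response between the lines, PC3 minus DU145, was -0.11 with a 95% confidence interval of -0.27 to 0.04, and -0.04 without PC3 vehicle replicate 1. TGFB1 shares 215 exon bases with HNRNPUL1 on the other strand, which had 3811 to 6745 counts, and whether counting used strand is not given in the sources used here, so reads from this stretch could belong to either gene.

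TGFB2 encodes the TGF-beta 2 ligand (ENSG00000092969, chr1:218346235-218444619, plus strand). It was at 5.93, 6.55 and 5.94 CPM in PC3 vehicle samples (80 to 101 counts) and at 8.71, 9.80 and 8.64 CPM in PC3 pentamidine samples (128 to 137 counts). The treated samples were all higher, by 0.56 ± 0.14 (SE) on the log2 scale (edgeR adjusted p = 0.00322). In DU145 cells it was at 6.06, 6.03 and 6.60 CPM with vehicle and at 6.10, 8.51 and 6.97 CPM with pentamidine. These groups overlapped, the treated samples spread more widely, and the log2 fold change of 0.22 ± 0.15 (SE) did not pass (edgeR adjusted p = 0.266), and it was 0.08 without DU145 pentamidine replicate 2. The lines did not differ detectably in response, with a log2 difference of 0.34 and a 95% confidence interval of -0.07 to 0.74. The annotated non-coding gene TGFB2-OT1 lies within 1371 exon bases of TGFB2 on the same strand, so its reads cannot be separated here.

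INHBA encodes the activin beta A subunit, which forms activin A (ENSG00000122641, chr7:41667168-41705834, minus strand). In PC3 cells it was at 142, 142 and 129 CPM with vehicle and at 155, 163 and 167 CPM with pentamidine. The treated samples were all higher, with a log2 fold change of 0.23 ± 0.06 (SE, edgeR adjusted p = 0.00256). In DU145 cells INHBA was at 44.1, 42.4 and 44.3 CPM with vehicle and at 23.5, 26.3 and 27.8 CPM with pentamidine. There the treated samples were all lower, with a log2 fold change of -0.74 ± 0.07 (SE, edgeR adjusted p = 7.7e-13). The test of the difference itself gave a log2 difference of 0.97 ± 0.09 (SE, edgeR adjusted p = 2.1e-09), and it was above 1 without DU145 pentamidine replicate 3 (1.02). In vehicle INHBA was 3.11 times as high in PC3 as in DU145 cells (log2 difference 1.63 ± 0.06, SE, edgeR adjusted p = 5.6e-13), so treatment widened a gap that was already there. The antisense gene INHBA-AS1 overlaps INHBA but shares 0 exon bases with it, and it had 1 to 22 counts.

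INHBE encodes the activin beta E subunit (ENSG00000139269, chr12:57452323-57459280, plus strand). It had 1, 0 and 0 counts in the PC3 vehicle samples and 24, 18 and 22 counts in the PC3 pentamidine samples. Over the group this is 1 count against 64, a ratio of 63.5 with an exact binomial 95% interval of 11 to 2547 that covers counting error only, from counts without molecular identifiers. In DU145 cells the counts were 0, 1 and 0 with vehicle and 3, 3 and 2 with pentamidine. The DU145 ratio of 8 counts to 1 was 8.13 with an interval of 1.09 to 361, and INHBE did not pass the low-count filter there. With limma on log2(CPM + 1) without a filter, INHBE passed in DU145 cells, in the same direction as in PC3 cells. It did not pass in DU145 cells with limma on log2(CPM + 0.1), in edgeR with no low-count filter or in the fit of all 12 samples. In edgeR the PC3 value was 5.55 on the log2 scale (edgeR adjusted p = 4.9e-06), which depends on the prior count and is not a bound. It was 7.42 without PC3 vehicle replicate 1, which held the only vehicle count. With limma it was 1.27 on log2(CPM + 1) and 3.71 on log2(CPM + 0.1), and INHBE passed in each of these. After treatment INHBE was at 1.46 ± 0.17 CPM (SD, n = 3) in PC3 and 0.18 ± 0.04 CPM (SD, n = 3) in DU145 cells, and per kb of exon it was also the lowest of the 10 genes in every group. The INHBE difference in response between the lines depended on the method and on single samples: it was 2.96 in edgeR (95% confidence interval -1.65 to 7.57) and did not pass, and it ranged from 1.07 without DU145 vehicle replicate 2 to 4.82 without PC3 vehicle replicate 1, but it passed with limma on log2(CPM + 1) (1.05, limma adjusted p = 3.2e-05) and on log2(CPM + 0.1) (2.45, limma adjusted p = 0.0117).

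TGFBI encodes a secreted matrix protein that TGF-beta induces (ENSG00000120708, chr5:136028895-136063818, plus strand). In PC3 cells it was at 23.8, 23.3 and 29.01 CPM with vehicle and at 10.3, 12.9 and 13.4 CPM with pentamidine. The treated samples lay far below the others, with a log2 fold change of -1.05 ± 0.12 (SE, edgeR adjusted p = 1.4e-06). In DU145 cells, where the gene was low, it was at 3.44, 2.38 and 3.09 CPM with vehicle (34 to 46 counts) and at 1.35, 1.42 and 1.17 CPM with pentamidine (17 to 21 counts). The log2 fold change was -1.15 ± 0.27 (SE, edgeR adjusted p = 6.1e-04), and the groups did not overlap. TGFBI fell by about the same factor in both lines, 2.07-fold and 2.23-fold, and the difference in response was 0.10 with a 95% confidence interval of -0.44 to 0.64, from 0.00 without DU145 vehicle replicate 1 to 0.25 without DU145 vehicle replicate 2. In PC3 cells the fold change lay close to the limit of 1, at -0.95 without PC3 vehicle replicate 3 and -0.94 without PC3 pentamidine replicate 1, where TGFBI still passed the test but was no longer called differentially expressed. In DU145 cells it was -0.73 with limma on log2(CPM + 1). In vehicle TGFBI was 8.37 times as high in PC3 as in DU145 cells (log2 difference 3.07 ± 0.15, SE, edgeR adjusted p = 2.1e-11), the widest gap among the members.

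SMAD6 encodes the inhibitory SMAD that acts mainly on BMP receptors (ENSG00000137834, chr15:66702228-66782848, plus strand). In DU145 cells it was at 4.71, 6.31 and 6.60 CPM with vehicle (63 to 96 counts) and at 8.72, 10.3 and 9.59 CPM with pentamidine (123 to 153 counts). The treated samples were all higher, by 0.71 ± 0.14 (SE) on the log2 scale (edgeR adjusted p = 7.4e-05). PC3 cells had 15.8, 13.0 and 16.0 CPM with vehicle and 13.4, 12.7 and 13.1 CPM with pentamidine. These groups overlapped and the log2 fold change of -0.18 ± 0.11 (SE) did not pass (edgeR adjusted p = 0.199), with -0.28 without PC3 vehicle replicate 2. The responses of the lines differed by -0.89 ± 0.18 (SE) on the log2 scale, PC3 minus DU145 (edgeR adjusted p = 5.8e-04). SMAD6 was 2.48 times as high in PC3 vehicle as in DU145 vehicle, and the rise in DU145 cells narrowed that gap.

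SMAD7 encodes the inhibitory SMAD of TGF-beta, activin and BMP receptors (ENSG00000101665, chr18:48919853-48950711, minus strand). In DU145 cells it was at 28.0, 27.0 and 26.7 CPM with vehicle and at 37.3, 33.5 and 34.9 CPM with pentamidine. All treated samples were higher, with a log2 fold change of 0.39 ± 0.07 (SE, edgeR adjusted p = 1.5e-05). PC3 cells had SMAD7 at 38.3, 34.0 and 36.7 CPM with vehicle and at 36.4, 37.6 and 35.6 CPM with pentamidine. Those groups overlapped, and the log2 fold change of 0.01 had a 95% confidence interval of -0.14 to 0.16 and ranged from -0.04 without PC3 vehicle replicate 2 to 0.05 without PC3 vehicle replicate 1. The difference in response, PC3 minus DU145, was -0.38 ± 0.10 (SE) on the log2 scale (edgeR adjusted p = 0.00626). After treatment SMAD7 was at 35.2 ± 1.9 CPM in DU145 and 36.5 ± 1.0 CPM in PC3 cells (SD, n = 3 each), from 27.2 and 36.4 CPM in vehicle.

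ID1 encodes an inhibitor of basic helix-loop-helix factors (ENSG00000125968, chr20:31605283-31606515, plus strand). In DU145 cells it was at 159, 168 and 182 CPM with vehicle and at 248, 264 and 261 CPM with pentamidine. The treated samples lay well above the vehicle samples, with a log2 fold change of 0.62 ± 0.04 (SE, edgeR adjusted p = 2.8e-19). In PC3 cells it was at 212, 135 and 170 CPM with vehicle and at 187, 208 and 210 CPM with pentamidine. Vehicle replicate 1 was above all 3 treated samples and the vehicle samples spread widely (38.2 CPM SD around 172). The log2 fold change was 0.23 ± 0.10 (SE) and did not pass (edgeR adjusted p = 0.0832), and it ranged from 0.08 without PC3 vehicle replicate 2 (edgeR adjusted p = 0.483) to 0.41 without PC3 vehicle replicate 1 (edgeR adjusted p = 5.1e-08), where it passed. It also passed with no low-count filter (0.23, edgeR adjusted p = 5.0e-04), in a fit of all 12 samples (0.23, edgeR adjusted p = 0.0421) and with limma on log2(CPM + 0.1) (0.23, limma adjusted p = 0.0487), but not with DESeq2 (0.23, DESeq2 adjusted p = 0.371) or limma on log2(CPM + 1) (0.23, limma adjusted p = 0.23). The difference in response, PC3 minus DU145, was -0.39 ± 0.13 (SE, edgeR adjusted p = 0.0278). It did not pass without PC3 vehicle replicate 1 (-0.20, edgeR adjusted p = 0.059), PC3 pentamidine replicate 1 (-0.34, edgeR adjusted p = 0.094), DU145 vehicle replicate 1 (-0.33, edgeR adjusted p = 0.0906), DU145 vehicle replicate 2 (-0.37, edgeR adjusted p = 0.0634), DU145 pentamidine replicate 2 (-0.37, edgeR adjusted p = 0.0669) or DU145 pentamidine replicate 3 (-0.38, edgeR adjusted p = 0.0602), nor with DESeq2 (-0.37, DESeq2 adjusted p = 0.198), limma on log2(CPM + 1) (-0.43, limma adjusted p = 0.137) or limma on log2(CPM + 0.1) (-0.44, limma adjusted p = 0.0608).

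ID2 encodes a second inhibitor of the same family (ENSG00000115738, chr2:8678845-8684453, plus strand). ID2 in PC3 cells was at 31.9, 31.2 and 31.4 CPM with vehicle and at 22.3, 21.2 and 22.5 CPM with pentamidine. The samples of each group lay close together and all treated samples were lower, with a log2 fold change of -0.51 ± 0.08 (SE, edgeR adjusted p = 3.6e-05). In DU145 cells it was at 39.5, 43.2 and 41.6 CPM with vehicle and at 42.0, 45.5 and 40.2 CPM with pentamidine. These groups overlapped and the log2 fold change was 0.05 with a 95% confidence interval of -0.07 to 0.18, and it ranged from -0.0037 without DU145 pentamidine replicate 2 to 0.09 without DU145 pentamidine replicate 3. The responses of the lines differed by -0.57 ± 0.10 (SE) on the log2 scale (edgeR adjusted p = 9.0e-05). The antisense gene ID2-AS1 shares 38 exon bases with ID2 and had 5 to 20 counts.

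ID3 encodes the remaining family member studied here (ENSG00000117318, chr1:23557918-23559794, minus strand). ID3 in PC3 cells was at 126, 117 and 122 CPM with vehicle and at 146, 141 and 128 CPM with pentamidine. The treated samples were all higher, with a log2 fold change of 0.19 ± 0.06 (SE, edgeR adjusted p = 0.0129). The call was lost without PC3 vehicle replicate 2 (0.16, edgeR adjusted p = 0.0685), PC3 pentamidine replicate 1 (0.15, edgeR adjusted p = 0.0958) or PC3 pentamidine replicate 2 (0.18, edgeR adjusted p = 0.0555), and with limma on log2(CPM + 1) (0.17, limma adjusted p = 0.0571). In DU145 cells ID3 was at 232, 236 and 228 CPM with vehicle and at 224, 213 and 210 CPM with pentamidine. The treated samples were all lower by a small amount, with a log2 fold change of -0.09 ± 0.04 (SE, edgeR adjusted p = 0.0392). That call was lost with library size alone (-0.04, edgeR adjusted p = 0.393), with DESeq2 (-0.10, DESeq2 adjusted p = 0.0582) and without DU145 vehicle replicate 2 (-0.08, edgeR adjusted p = 0.131), DU145 vehicle replicate 3 (-0.10, edgeR adjusted p = 0.0527), DU145 pentamidine replicate 2 (-0.09, edgeR adjusted p = 0.12) or DU145 pentamidine replicate 3 (-0.08, edgeR adjusted p = 0.141). It was also lost in the fit of all 12 samples (-0.10, edgeR adjusted p = 0.14) and in limma on log2(CPM + 1) without and with its filter and on log2(CPM + 0.1) (-0.04 each, limma adjusted p = 0.548, 0.396 and 0.586). The limma fits used no TMM and share their scaling with library size alone. The difference in response between the lines, 0.28 ± 0.07 (SE, edgeR adjusted p = 0.00315), passed with each sample left out in turn but not with limma on log2(CPM + 1) (0.21, limma adjusted p = 0.0725) or on log2(CPM + 0.1) (0.21, limma adjusted p = 0.0607).

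**Figure D2:**
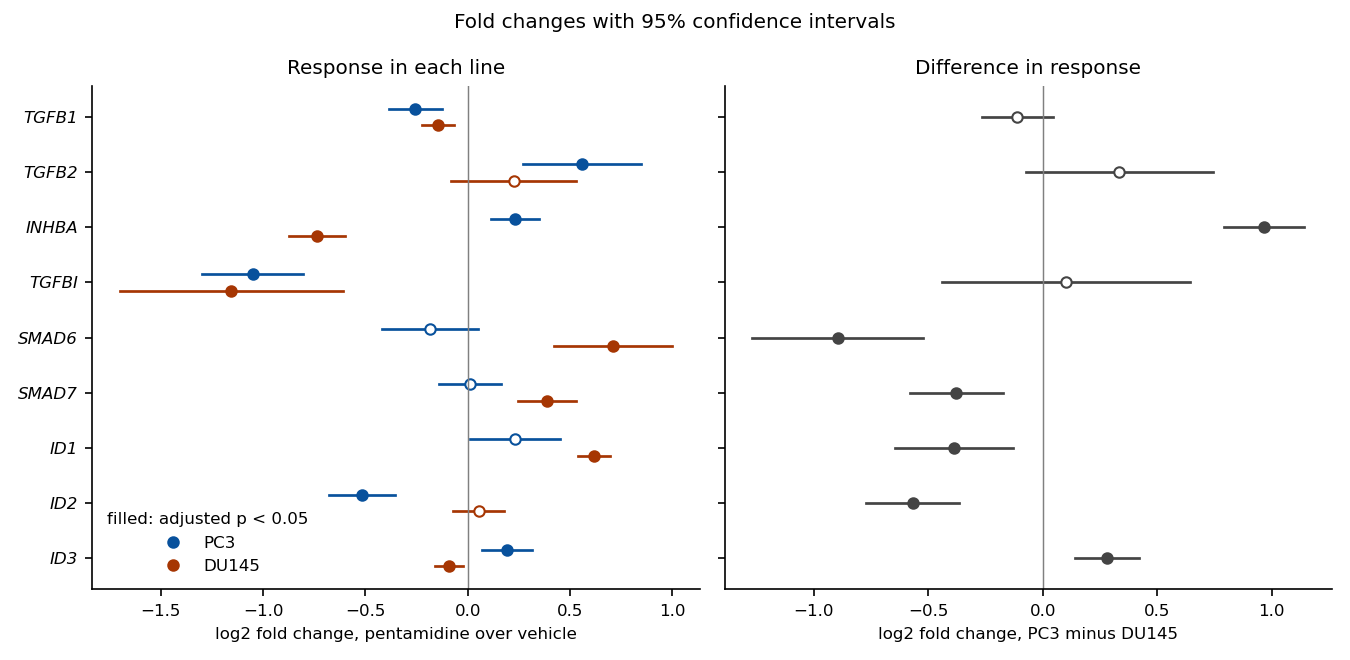
Log2 fold change of pentamidine over vehicle in each line (left) and the difference of these fold changes, PC3 minus DU145 (right), with 95% confidence intervals, from 6 samples a line and 12 samples. INHBE is not shown because it did not pass the low-count filter in DU145 cells; filled points passed at an adjusted p below 0.05, and TGFBI is lowest in both lines.

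**Figure D3:**
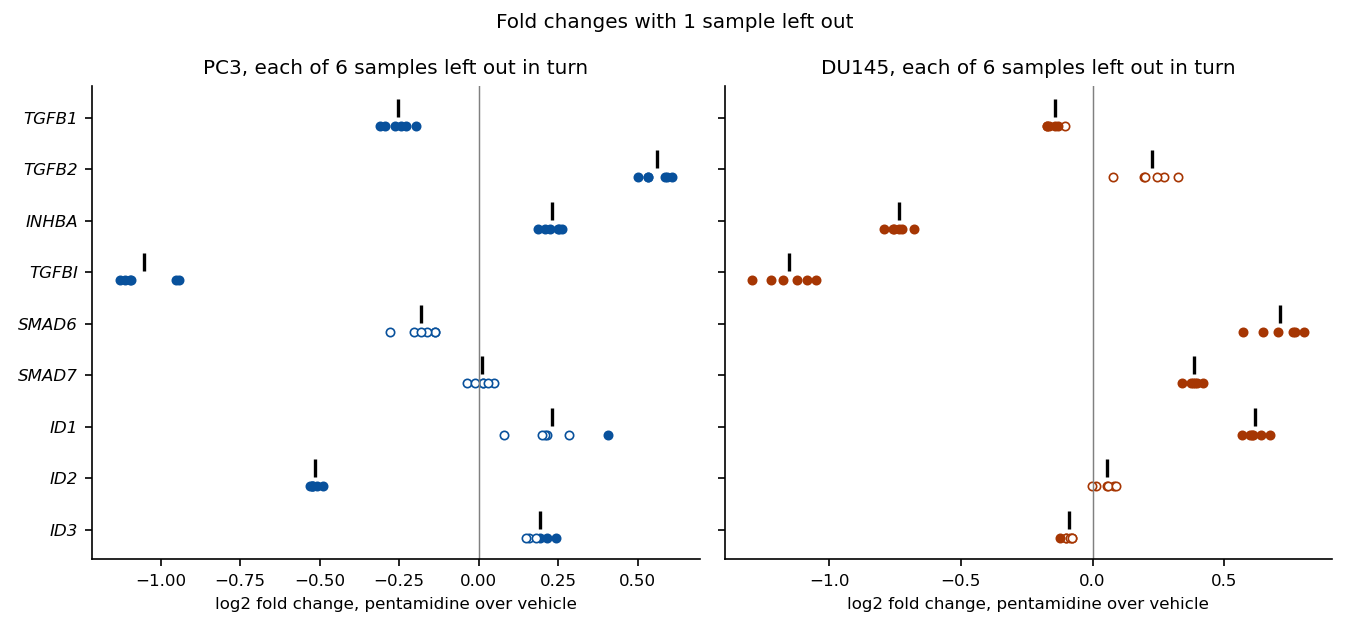
Log2 fold change of 9 genes in each line with each of the 6 samples left out in turn (points, filled where the adjusted p was below 0.05) and with all samples (black marks). ID1 in PC3 cells passes in 1 of 6 cases, and ID3 changes its call in both lines.

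Of the members, 4 passed in both lines, 2 in the same direction (TGFB1 and TGFBI) and 2 in opposite directions (INHBA and ID3). Under every alternative TGFBI passed in both lines in the same direction and INHBA in opposite directions. The count in the same direction became 1 without DU145 vehicle replicate 3 (TGFB1 lost) and 3 without PC3 vehicle replicate 1 (ID1 gained). The count in opposite directions became 1 (ID3 lost) without PC3 vehicle replicate 2, PC3 pentamidine replicate 1, PC3 pentamidine replicate 2, DU145 vehicle replicate 2, DU145 vehicle replicate 3, DU145 pentamidine replicate 2 or DU145 pentamidine replicate 3. With library size alone, or limma on log2(CPM + 1) with its filter, both counts became 1. With no low-count filter the count in the same direction became 3 (ID1 gained). In the fit of all 12 samples the counts were 3 (ID1 gained) and 1. With DESeq2 or adjusted p below 0.01, only the count in opposite directions became 1. It was 1 as well in limma without a filter. There the 2 in the same direction were TGFBI and INHBE on log2(CPM + 1), and TGFBI and ID1 on log2(CPM + 0.1). Over the 13125 genes with a test in each line, with all samples, the counts were 2567 in the same direction (19.6%) and 317 in opposite directions (2.42%). The responses of the lines differed for 6 of the 10 members (INHBA, SMAD6, SMAD7, ID1, ID2 and ID3), where 20.4% of all genes tested differed, and none of these 6 differences was above 1 on the log2 scale (2.62% of all genes passed and were above 1). Before treatment the lines already differed for 7 of the 9 members tested (65.3% of all genes tested), and for TGFBI, INHBA and SMAD6 by more than 1 on the log2 scale (19.2% of all genes). In vehicle TGFB1, ID2 and ID3 were lower in PC3 than in DU145 cells, by 1.37-fold, 1.34-fold and 1.94-fold. TGFB2 and ID1 did not pass between the vehicle groups, with log2 differences of -0.04 (95% confidence interval -0.36 to 0.27) and -0.01 (-0.23 to 0.22), although without PC3 vehicle replicate 1 ID1 was lower in PC3 cells (-0.18, edgeR adjusted p = 0.0107).

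Levels were also divided by exon length, counted over all annotated exons of a gene. This length was 1233 bases for ID1, 5151 for TGFB2, 7810 for TGFBI and 8563 for SMAD6. The lengths of the transcripts present in these cells were not measured. The order of genes below therefore holds only for these lengths. Samples that do not overlap show a small spread, but they do not test the lengths. In PC3 vehicle ID1 led with 140 ± 31.0 CPM per kb (SD, n = 3), followed by ID3 with 67.7 ± 2.58, TGFB1 with 42.5 ± 3.26, INHBA with 16.6 ± 0.860, ID2 with 14.3 ± 0.152 and SMAD7 with 7.22 ± 0.427 CPM per kb. TGFBI, SMAD6 and TGFB2 followed at 3.25, 1.74 and 1.19 CPM per kb and INHBE was last at 0.00745. No neighbours in that order overlapped in their samples. In DU145 vehicle ID1 and ID3 overlapped at the top, at 138 ± 9.24 and 129 ± 2.31 CPM per kb, and so did SMAD7 and INHBA at 5.41 ± 0.127 and 5.255 ± 0.125 CPM per kb. Between these pairs stood TGFB1 (57.3) and ID2 (18.8), and below them TGFB2 (1.21), SMAD6 (0.686), TGFBI (0.381) and INHBE (0.00775), with no other neighbours overlapping. On this scale TGFBI (1.56 CPM per kb) overlapped TGFB2 (1.76) and SMAD6 (1.53) in PC3 cells after pentamidine, which depends on the lengths used. In DU145 cells after pentamidine ID1 stood above ID3, at 209 ± 6.69 against 120 ± 3.96 CPM per kb. SMAD7 (7.001 CPM per kb) then stood above INHBA (3.12) in DU145 cells, and TGFB2 (1.396) and SMAD6 (1.115) overlapped there.

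Promoter sequences of the members other than INHBE, in 11 windows of 300 bases from 250 bases before to 50 after the transcription start (RefSeq, GRCh38.p14), were searched on both strands for 7 motifs. Shown are the 250 bases before the start of TGFBI, which fell in both lines, and of SMAD6, SMAD7 (the most upstream of 3 windows) and ID1, which rose together in DU145 cells, 5′ to 3′ on the gene's strand. On the plus, plus, minus and plus strand they lie at chr5:136028738-136028987, chr15:66701986-66702235, chr18:48950966-48951215 and chr20:31605039-31605288. Capitals mark matches to any motif other than the E-box.
TGFBI: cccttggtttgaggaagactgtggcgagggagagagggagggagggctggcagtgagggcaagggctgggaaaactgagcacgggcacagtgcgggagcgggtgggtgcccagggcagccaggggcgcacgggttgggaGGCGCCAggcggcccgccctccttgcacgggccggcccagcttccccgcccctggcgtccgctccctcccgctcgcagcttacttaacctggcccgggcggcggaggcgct
SMAD6: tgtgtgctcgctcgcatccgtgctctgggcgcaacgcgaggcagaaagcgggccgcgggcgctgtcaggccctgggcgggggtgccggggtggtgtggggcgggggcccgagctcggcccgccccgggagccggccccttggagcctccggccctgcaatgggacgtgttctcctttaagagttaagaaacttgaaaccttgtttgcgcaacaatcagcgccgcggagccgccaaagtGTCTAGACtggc
SMAD7: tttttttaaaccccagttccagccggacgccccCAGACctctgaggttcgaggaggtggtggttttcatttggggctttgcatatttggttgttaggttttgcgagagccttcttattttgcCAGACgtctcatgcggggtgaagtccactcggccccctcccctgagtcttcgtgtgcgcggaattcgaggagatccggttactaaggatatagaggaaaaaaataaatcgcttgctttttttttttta
ID1: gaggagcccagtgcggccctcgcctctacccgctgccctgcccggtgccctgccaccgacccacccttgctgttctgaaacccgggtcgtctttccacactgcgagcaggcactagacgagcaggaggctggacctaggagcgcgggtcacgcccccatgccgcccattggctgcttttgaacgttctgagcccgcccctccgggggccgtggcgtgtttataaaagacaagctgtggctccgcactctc
TGFBI holds the BMP response element core TGGCGCC, in reverse, at position -111 from the start; it is in 5.81% of all 35116 windows, and the GC-rich element GGCGCC, which it contains, is in 19.2%. SMAD6 holds the SMAD palindrome GTCTAGAC, in 0.202% of all windows, at position -12. The SMAD7 window holds the SMAD box CAGAC, in 45.3% of all windows, at positions -217 and -128. The ID1 window holds none of the 7 motifs. CAGAC also occurs in the windows of TGFB2, INHBA and ID3. The CHOP-ATF4 element TGATGNAA (3.62% of windows) and the cyclic AMP response element TGACGTCA (1.85%) are in none of the 11, and the E-box CANNTG (68.7%) is in the windows of TGFB2, INHBA, SMAD6, SMAD7 and ID2. A match describes letters in these windows only, and was not tested for binding.

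For each member the 3 genes with the most similar pattern were found by the root mean square difference of centred log2 CPM over the 12 samples, among the 13125 genes with a test in each line. They were PAPD7, TMEM2 and FTO for TGFB1 (0.05 to 0.06), AKTIP, TCHP and EPC2 for TGFB2 (0.11 each), and AL161431.1, TRANK1 and PTPRE for INHBA (0.19 to 0.21). For INHBE they were OSCAR, PCK2 and MT1F (0.35 to 0.44) and for TGFBI SPHK1, TNFAIP6 and P3H3 (0.28 to 0.42), the loosest matches among the members. For SMAD6 they were DSTNP2, LEF1 and ZNF441 (0.17 to 0.20) and for SMAD7 ARF5, H2AFV and CUEDC2 (0.07 each). For the ID genes they were DNAJC4, ZNF579 and UCP2 (0.12 to 0.13) for ID1, ADGRL2, MCM6 and ANP32E (0.07 to 0.08) for ID2, and LPIN3, ARIH2 and IGF1R (0.07 to 0.08) for ID3.

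The other genes of the pathways were taken from 11 lists, which were chosen with earlier results of these data known. Over all genes tested the median log2 fold change was 0.00 in PC3 and 0.01 in DU145 cells. Of all genes tested 43.4% passed in PC3 cells, 21.7% higher and 21.7% lower. In DU145 cells 34.0% passed, 17.2% higher and 16.8% lower. List counts here and below are to be read against these shares, and a count near them does not set a list apart. Of the TGF-beta and activin ligands, 3 of 6 tested rose and 2 fell in PC3 cells (median 0.36; without INHBE 2 of 5 rose, median 0.23), and none rose and 3 fell of 6 in DU145 cells (median -0.11). Apart from the members, GDF11 fell in both, from 21.9 to 14.6 CPM in PC3 and from 18.1 to 11.7 CPM in DU145 cells. Of the BMP and GDF ligands 2 of 4 rose in PC3 and 3 of 7 in DU145 cells, and none fell. Among them GDF15, a stress-induced ligand, rose from 243 ± 11.8 to 826 ± 19.99 CPM in PC3 and from 105 ± 2.17 to 243 ± 7.23 CPM in DU145 cells (SD, n = 3; log2 fold change 1.77 and 1.23, edgeR adjusted p = 1.9e-14 and 5.6e-33).

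Of the receptors and co-receptors 3 rose and 3 fell of 12 in PC3 cells and 2 of 12 fell in DU145 cells, and TGFBR3 was lower in both (log2 fold change -0.35 and -0.66). These 6 and 2 calls became 3 to 5 and 1 to 2 with 1 sample left out, so the counts depend on single samples: 3 without PC3 vehicle replicate 2 or PC3 pentamidine replicate 1, and 1 without DU145 vehicle replicate 3 or DU145 pentamidine replicate 1. Of the 6 signalling SMADs, SMAD1 and SMAD2 rose and SMAD3 fell in PC3 cells, and SMAD2 rose and SMAD3 fell in DU145 cells, where 4 passed without DU145 vehicle replicate 1 or DU145 pentamidine replicate 1. SMAD3, which carries TGF-beta and activin signals, fell from 129 to 82.9 CPM in PC3 (log2 fold change -0.63 ± 0.06, SE) and from 272 to 239 CPM in DU145 cells (-0.17 ± 0.03, SE). SMAD2, which carries the same signals, rose in PC3 (0.29) and in DU145 cells (0.18). Of the genes of ligand latency and activation 2 rose and 4 fell of 7 in PC3 cells, and 3 rose and 2 fell of 8 in DU145 cells. THBS1, which can activate latent TGF-beta, fell in both (-0.73 and -0.48), and LTBP2, of the same list, rose in both (0.59 and 0.43). The antagonist list had 2 calls of 4 in PC3 cells, NOG higher and TWSG1 lower. This became 4 when PC3 vehicle replicate 1 was left out, and 1 (NOG) with any of PC3 vehicle replicate 2, PC3 pentamidine replicate 1 or PC3 pentamidine replicate 2 left out. In DU145 cells the antagonist list had 0 calls of 5, and 1 when DU145 vehicle replicate 1, DU145 vehicle replicate 3, DU145 pentamidine replicate 1 or DU145 pentamidine replicate 3 was left out.

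Of the intracellular regulators, which include SMAD6 and SMAD7, 5 rose and 3 fell of 16 in PC3 cells and 6 rose and 5 fell in DU145 cells; the 11 calls in DU145 cells became 7 with DESeq2. PMEPA1, which restrains TGF-beta signalling, rose in PC3 (log2 fold change 0.68) and in DU145 cells (0.41). SMURF2, a ubiquitin ligase that works with SMAD7, rose in PC3 (0.46) and fell in DU145 cells (-0.40). Of the ID proteins and their partners 3 rose and 3 fell of 8 in PC3 cells and 3 rose and 2 fell of 7 in DU145 cells, where 3 passed without DU145 vehicle replicate 2 or DU145 pentamidine replicate 2. ID4 fell in both lines (-0.46 and -0.62), which none of the 3 ID members did. Of the TGF-beta targets 9 rose and 4 fell of 20 in PC3 cells (median 0.23) and 7 rose and 6 fell of 20 in DU145 cells (median 0.10). CTGF rose from 164 to 486 CPM in PC3 and from 135 to 168 CPM in DU145 cells, while TGFBI, of the same list, fell in both. Of the BMP targets, 5 of them members, 2 rose and 2 fell of 9 in PC3 cells and 3 rose and 2 fell of 9 in DU145 cells, and all 3 that rose in DU145 cells were members. One of the 2 that rose in PC3 cells was HEY1, which reached the filter level in the pentamidine samples only (5 to 7 counts with vehicle, 28 to 45 with pentamidine), and without it 1 of 8 rose. Of the ATF4 and CHOP targets, the list that also holds INHBE, 11 rose and 1 (ATF5) fell of 12 in PC3 cells (median 2.57; ATF5 did not pass without PC3 vehicle replicate 2, PC3 vehicle replicate 3, PC3 pentamidine replicate 1 or PC3 pentamidine replicate 3, nor with DESeq2) and 10 of 11 rose in DU145 cells (median 1.66). Without INHBE and VLDLR in PC3 cells and ATF3 in DU145 cells, which reached the filter level in all samples only with pentamidine, 9 of 10 rose in each line (medians 2.35 and 1.6), with SESN2 at 4.16 and 2.33 and CHAC1 at 3.91 and 2.89 in PC3 and DU145 cells.

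**Figure D4:**
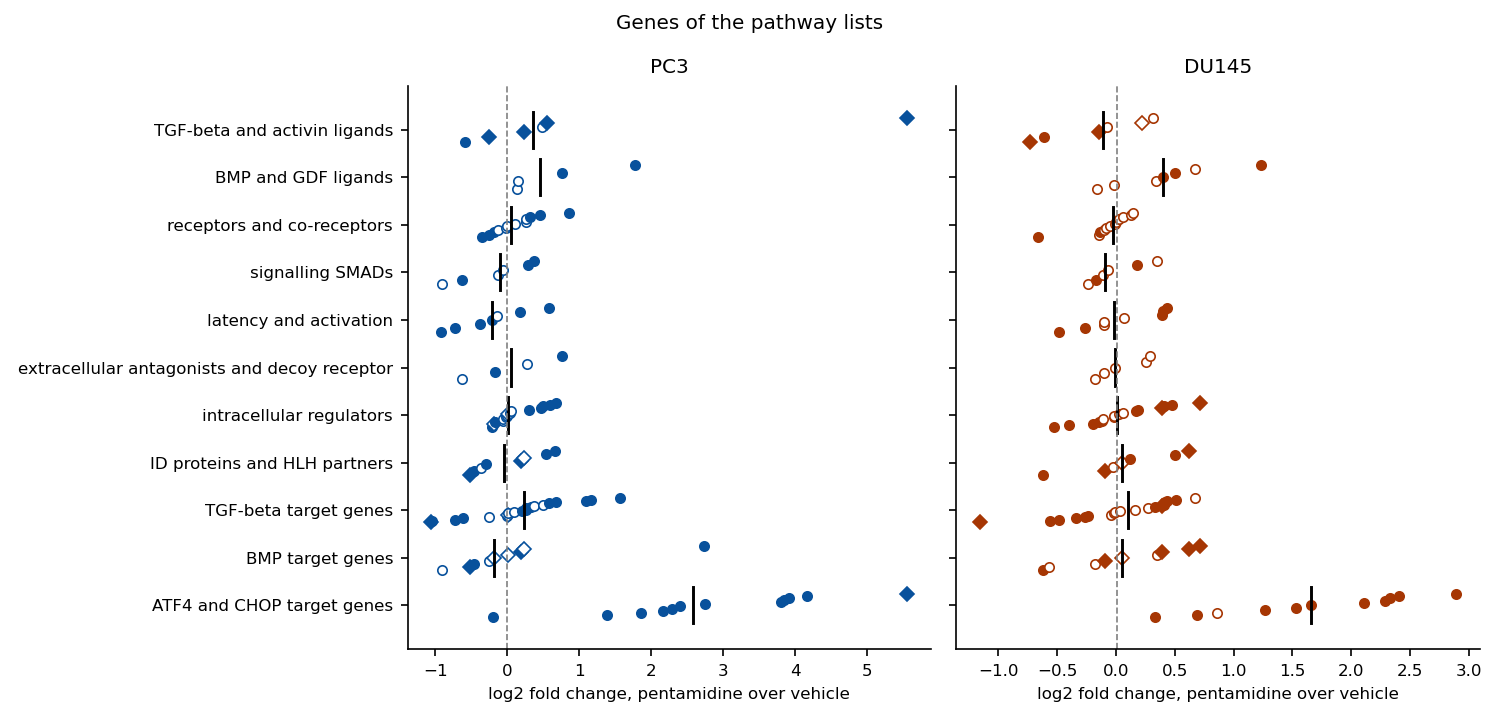
Log2 fold change of every tested gene of the 11 lists in each line. Diamonds are the 10 members and circles the other genes, filled where the adjusted p was below 0.05. Short black lines are list medians, and the dashed line is the median of all genes tested. The ATF4 and CHOP targets lie furthest to the right in both lines, among lists chosen with earlier results of these data known.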

How the data were processed

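The authors aligned reads with HISAT2 2.1.0 to GRCh38 and tested with DESeq 1.18.1, per the submitters' processing notes; the counting program is not given in the sources used here. Counts deposited by the authors are whole reads for each gene, before any scaling. A second deposited table carries the label FPKM but holds CPM: 100% of its 384924 values equalled the count scaled to the library total within 1e-05. The authors' comparison tables hold fold changes and p-values and were not used. Of 33595 entries with an identifier, 32077 genes were kept, 1 per name and set of counts; 44 lines without a gene were left out, and 137 names stood under several identifiers. Of these genes 31961 were in GENCODE release 29, 30950 with the same coordinates.

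The counts were tested with edgeR 4.0.16 (R 4.3.3): TMM, filterByExpr at a minimum count of 10, the quasi-likelihood test and Benjamini-Hochberg adjustment, each line on its 6 samples, the interaction of line and treatment on all 12 and vehicle against vehicle on 6. The code was tested on simulated data. Log2 CPM used a prior count of 2. Alternatives were DESeq2 1.42.0, other scalings and filters, the replicate number as a block, limma 3.58.1 on log2(CPM + 1) and log2(CPM + 0.1), which understates changes of low genes, and samples left out in turn. The planned limma tests of FPKM values were run on the deposited CPM, scaled by library total without TMM. The limma fits thus share the scaling of the fit with library size alone. In edgeR that scaling shifted log2 fold changes by a median of -0.0183 in PC3 and 0.05 in DU145 cells. Intervals of ratios were exact binomial (SciPy 1.17.1). Named genes were the 10 members; per list and line up to 2 genes a direction with the largest fold change, at least 10 counts in the higher group and no overlap, of which a selection is described; and the 3 nearest genes to each member. For SMURF2, PMEPA1, CTGF, SESN2 and CHAC1 the values of the line in which the rule did not name them were added after they were seen. The members and lists were chosen with earlier results of these data known.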

Additional observations from a re-analysis of the deposited data

Results flagged for a closer look

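The response to pentamidine differed between the lines, by edgeR's test of the interaction of line and treatment, for 6 members. The log2 fold change in PC3 minus that in DU145 cells was 0.967 for INHBA and 0.282 for ID3, and -0.895 for SMAD6, -0.568 for ID2, -0.388 for ID1 and -0.377 for SMAD7. The difference for ID1 did not pass with 6 of the 12 samples left out in turn, with DESeq2 (adjusted p = 0.198) or with limma on log2(CPM + 1) and log2(CPM + 0.1) (adjusted p = 0.137 and 0.0608), and that for ID3 did not pass with the same limma tests (adjusted p = 0.0725 and 0.0607).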

How the results depend on the processing

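In PC3 cells 7 members passed, and another number did in 10 of 18 alternatives (6 to 8, also with samples left out in turn), and 2 were differentially expressed (1 to 2: 1 without PC3 vehicle replicate 3 or PC3 pentamidine replicate 1, and 1 with at least 10 counts in every sample, where INHBE was not tested). In DU145 cells 7 passed, with another number in 11 of 18 alternatives (5 to 7), and the 1 differentially expressed member became 0 with limma on log2(CPM + 1), with or without its filter. For the difference between the lines 6 passed, with 5 in 10 of 23 alternatives; 0 above 1 became 1 with limma on log2(CPM + 1) or log2(CPM + 0.1), which is INHBE, and without DU145 pentamidine replicate 3, which is INHBA (0 to 1). Between the vehicle groups 7 passed, and 8 in 1 of 18 alternatives. Signs turned only for log2 values that did not pass: SMAD7 in PC3 cells (library size alone -0.0078, limma -0.0066, -0.0067 and -0.0066, left out -0.0383 to 0.0489), ID2 in DU145 cells (left out -0.0037 to 0.0889), the difference between the lines for TGFBI (limma -0.287, -0.0213 and -0.287), and between vehicle groups TGFB2 (library size alone 0.0355, limma 0.0295, 0.0337 and 0.0295, left out -0.0862 to 0.00093) and ID1 (library size alone 0.0751, no low-count filter 0.0117, limma 0.0545, 0.0547 and 0.0545, all 12 samples in one fit 0.0205, left out -0.176 to 0.153). List counts of passing genes moved by over 1.5 times outside the left-out samples for receptors (PC3 6 to 3 with DESeq2, the replicate block, limma on log2(CPM + 1) or adjusted p below 0.01; DU145 2 to 1 with DESeq2, both limma offsets without a filter, all 12 samples in one fit or adjusted p below 0.01), antagonists (PC3 2 to 1 at adjusted p below 0.01; DU145 0 to 1 with library size alone or limma on log2(CPM + 0.1) or on log2(CPM + 1) with its filter), intracellular regulators (PC3 8 to 5 at adjusted p below 0.01; DU145 11 to 7 there or with DESeq2) and ID proteins (DU145 5 to 3 with DESeq2, all 12 samples in one fit or adjusted p below 0.01). With the replicate block, replicate number as a term, 7, 7, 6 and 7 members passed in the PC3, DU145, difference and vehicle comparisons, as without it; same-number correlations were -0.002, 0.025 and -0.073 in PC3 and -0.001, -0.007 and -0.015 in DU145 cells, so the numbers do not pair samples. The limma fits used CPM without TMM, so their scaling is that of library size alone. The cause of these shifts was not tested.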
